A study of Mus musculus with 11 samples.

Results

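The pan-endothelial identity genes are 32 genes that endothelial cells of most vessels and of the heart's inner lining express. They were taken from the deposited table of raw gene counts by gene symbol, and all 32 were found among its 46983 genes. They fall by role into 7 adhesion and junction molecules, 6 receptor tyrosine kinases or their phosphatase, 6 transcription factors, 4 secreted or granule proteins and 9 other surface proteins. All 32 passed the filter on low counts and were among the 19366 genes tested. The lowest count of any of them in any library was 64, for Gpihbp1.

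Aortic valves of wild type mice were sequenced 48 hours after surgery, with 1 mouse per library and the strain not stated. A wire was passed in vivo to damage the endothelium of the valve, and the controls had sham surgery. The libraries came from 3 young injured, 3 young sham, 2 aging injured and 3 aging sham mice, where young means 3 to 4 months and aging 16 to 18 months of age. The values are those of whole dissected valves, so every cell type in the dissected tissue contributed to them.

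Endothelial cells line vessels and cover both faces of the valve leaflets. Junction proteins such as VE-cadherin and PECAM1 hold neighbouring cells together. Receptors for vascular endothelial growth factor (VEGF) and the angiopoietins govern their growth and quiescence, and ETS and SOX transcription factors maintain their identity. Stripping the endothelium removes these cells, and cells at the wound edge can then migrate and divide to cover the surface again.

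Library totals ranged from 27124000 to 36353474 counts, and the 32 genes together took 0.107% to 0.252% of them. Both aging injured libraries and young sham 1 held counts for 18641 to 19015 genes, against 20411 to 22533 in the other 8. Injury in aging valves and this difference cannot be told apart, and neither can age in injured valves and this difference. It also enters the other comparisons that use these libraries. RNA of heart muscle was found in all 11 libraries. The 15 cardiomyocyte markers, all detected in each library, summed to 10385 to 42651 CPM (counts scaled to a common library size) in young injured, 23204 to 43018 in young sham, 15245 and 16755 in aging injured and 9354 to 26040 in aging sham libraries. Young injured 1 stood apart for the endothelial genes. It held the lowest value of the 11 libraries for 26 of the 32 genes, against 7.70% of all genes tested. The medians of the 32 genes in the comparisons that use it, and the values of some genes, are therefore also given without it. The medians of the marker lists are not. Young injured 1 was set apart by the values of these same genes, so values without it are description and no test.

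Per kilobase of transcript, on the authors' RPKM scale (reads scaled by gene length and library size), the genes covered a wide range of levels. Eng, the TGF-beta co-receptor endoglin, was highest, with a mean of 97.9 RPKM over the 11 libraries and a range of 69.2 to 149. Pecam1 followed with a mean of 34.0 RPKM, Cdh5, which encodes VE-cadherin, with 28.1, and Plvap, a protein of the diaphragms of fenestrae and caveolae, with 24.7. After these 4 came the transcription factors Erg at 15.5 RPKM and Sox18 at 14.9, and the receptor Tie1 at 14.8. The lowest means were those of Tal1 at 2.46, Sox17 at 2.25 and Cyyr1 at 1.87 RPKM. The VEGF receptors lay close together in the middle of this order, with mean levels of 8.84 RPKM for Kdr, 8.82 for Flt1 and 9.29 for Flt4, differences well within their spread over libraries.

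**Figure D1:**
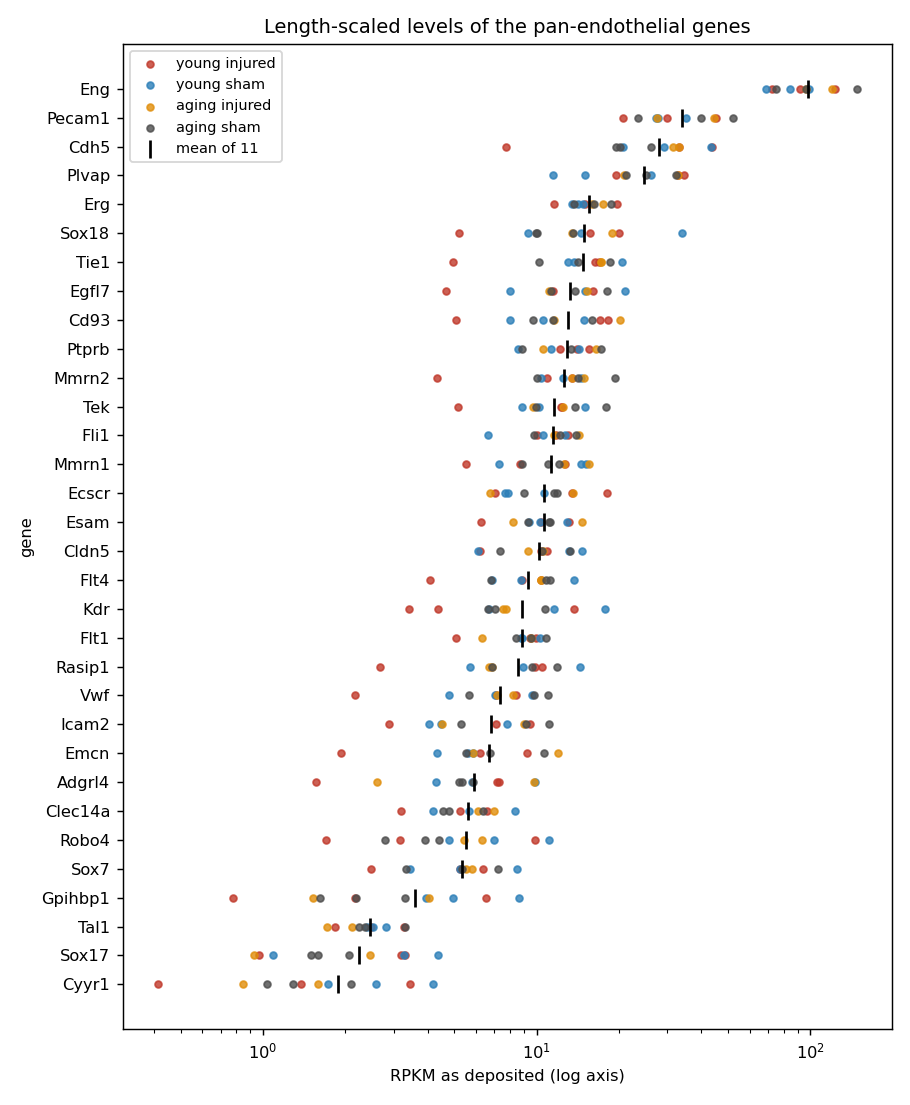
Deposited RPKM of the 32 genes on a log axis, ordered by the mean of the 11 libraries (vertical tick), with 1 point per library coloured by group. Eng stands above the rest at a mean of 97.9 RPKM, and the leftmost point of most genes belongs to a young injured library.

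The genes did not vary alike over the libraries. The coefficient of variation of the CPM values over all 11 libraries was 15.3% for Erg, 18.4% for Fli1, both ETS factors, and 19.6% for Flt1. It was 53.9% for Robo4, 61.6% for Cyyr1 and 66.5% for Gpihbp1, which anchors lipoprotein lipase on the capillary wall. In young injured 1 the level of a gene was 0.385 of the mean of the other 2 young injured libraries as a median over the 32 genes, from 0.164 for Cyyr1 to 0.793 for the phosphatase gene Ptprb. The highest library was young sham 3 for 14 genes and aging sham 3 for 9. Summed over the 32 genes, the levels were 1002, 2066 and 2178 CPM in young injured 1, 2 and 3, against 1510, 1719 and 2408 CPM in young sham 1, 2 and 3. In aging valves the sums were 2124 and 1929 CPM in aging injured 1 and 2, against 1497, 1891 and 2423 CPM in aging sham 1, 2 and 3. The sums of injured and sham libraries overlapped at both ages, with young injured 1 alone below every other library. In tissue RNA of this kind, fewer endothelial cells and less RNA per endothelial cell cannot be told apart.

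**Figure D2:**
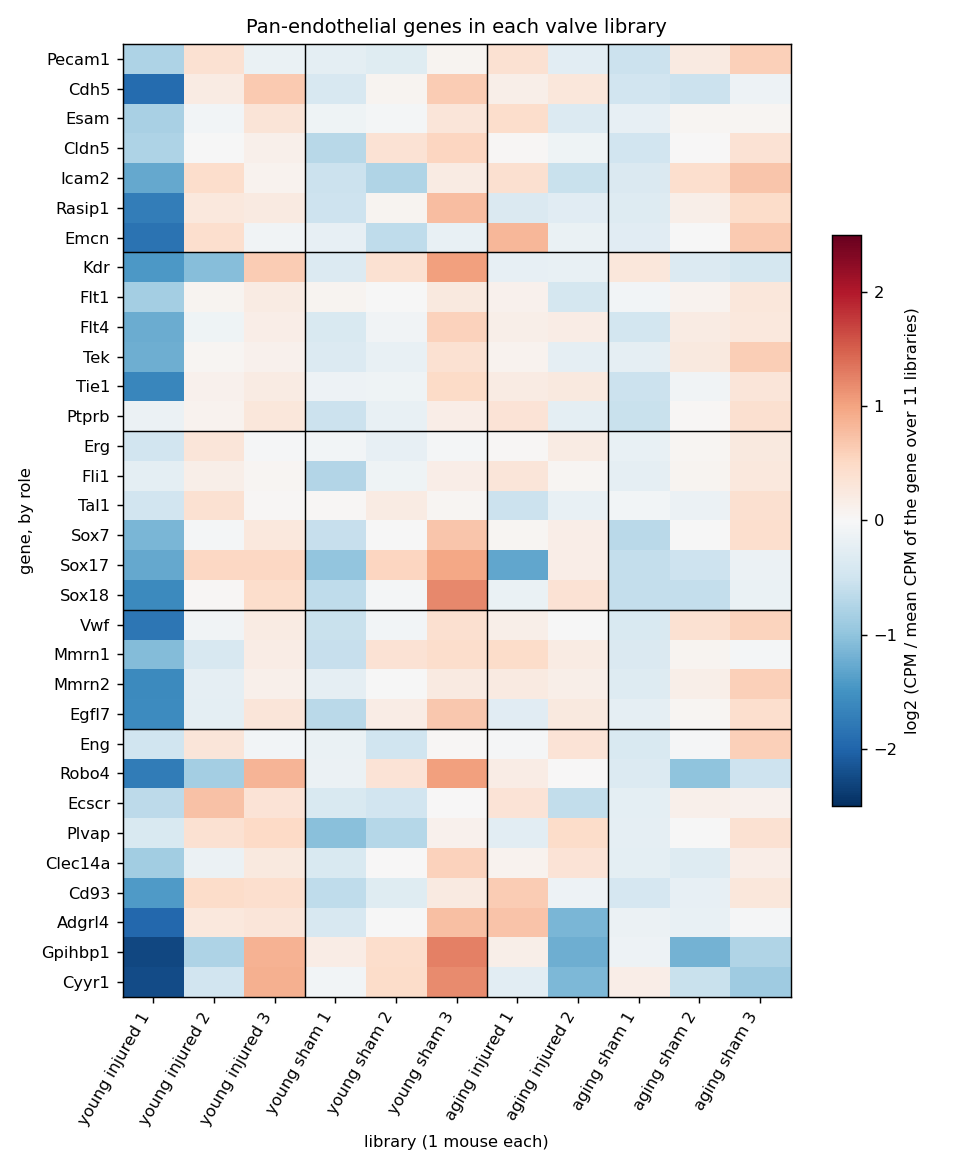
Level of each gene in each library as the log2 ratio of its CPM to the gene's mean over the 11 libraries, with genes grouped by role and libraries by group. The column of young injured 1 is blue for most genes and holds the lowest value of 26 of the 32.

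None of the 32 genes was called as changed by wire injury in young valves. A call required a Benjamini-Hochberg adjusted p under 0.1 over all genes tested in edgeR's quasi-likelihood test and a fold change over 2, the thresholds of the series' design text, and 0.418% of all genes tested met it. At an unadjusted p under 0.05 the count was also 0 of 32, against 9.19% of all genes, and DESeq2 called 0 as well, with 1 at an unadjusted p under 0.05. On the log2 scale 22 genes were below and 10 above zero, with a median of -0.28, where the median of all genes tested was 0.01. That median followed single libraries. It was 0.09, with 20 genes above zero, without young injured 1, and 0.02 without young sham 3, but -0.55 without young injured 3 and -0.48 without young sham 1. Injured and sham libraries overlapped for all 32 genes, where 14.6% of all genes tested showed no overlap. The 95% interval of the fold change excluded a 2-fold or larger fall for 15 genes and a 2-fold or larger rise for 27, and it lay within 2-fold both ways for 10.

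In aging valves the count of called genes was again 0 of 32, and 0% of all genes tested were called. At an unadjusted p under 0.05 it was 0 of 32 against 8.83% of all genes, and DESeq2 also gave 0 on both counts. The log2 fold changes were above zero for 19 genes and below for 13, with a median of 0.07 against -0.01 for all genes tested. Without aging injured 1 the median was -0.06, and without aging sham 1 it was -0.06 as well, while it was 0.03 without aging sham 2, 0.10 without aging injured 2 and 0.22 without aging sham 3. In 4 genes the injured and sham libraries did not overlap, with Cdh5, Mmrn1 and Robo4 higher and Tal1 lower in the injured ones, against 27.8% of all genes tested (11.1% higher and 16.7% lower). The interval of the fold change excluded a 2-fold fall for 21 genes and a 2-fold rise for 18, and lay within 2-fold both ways for 12.

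**Figure D3:**
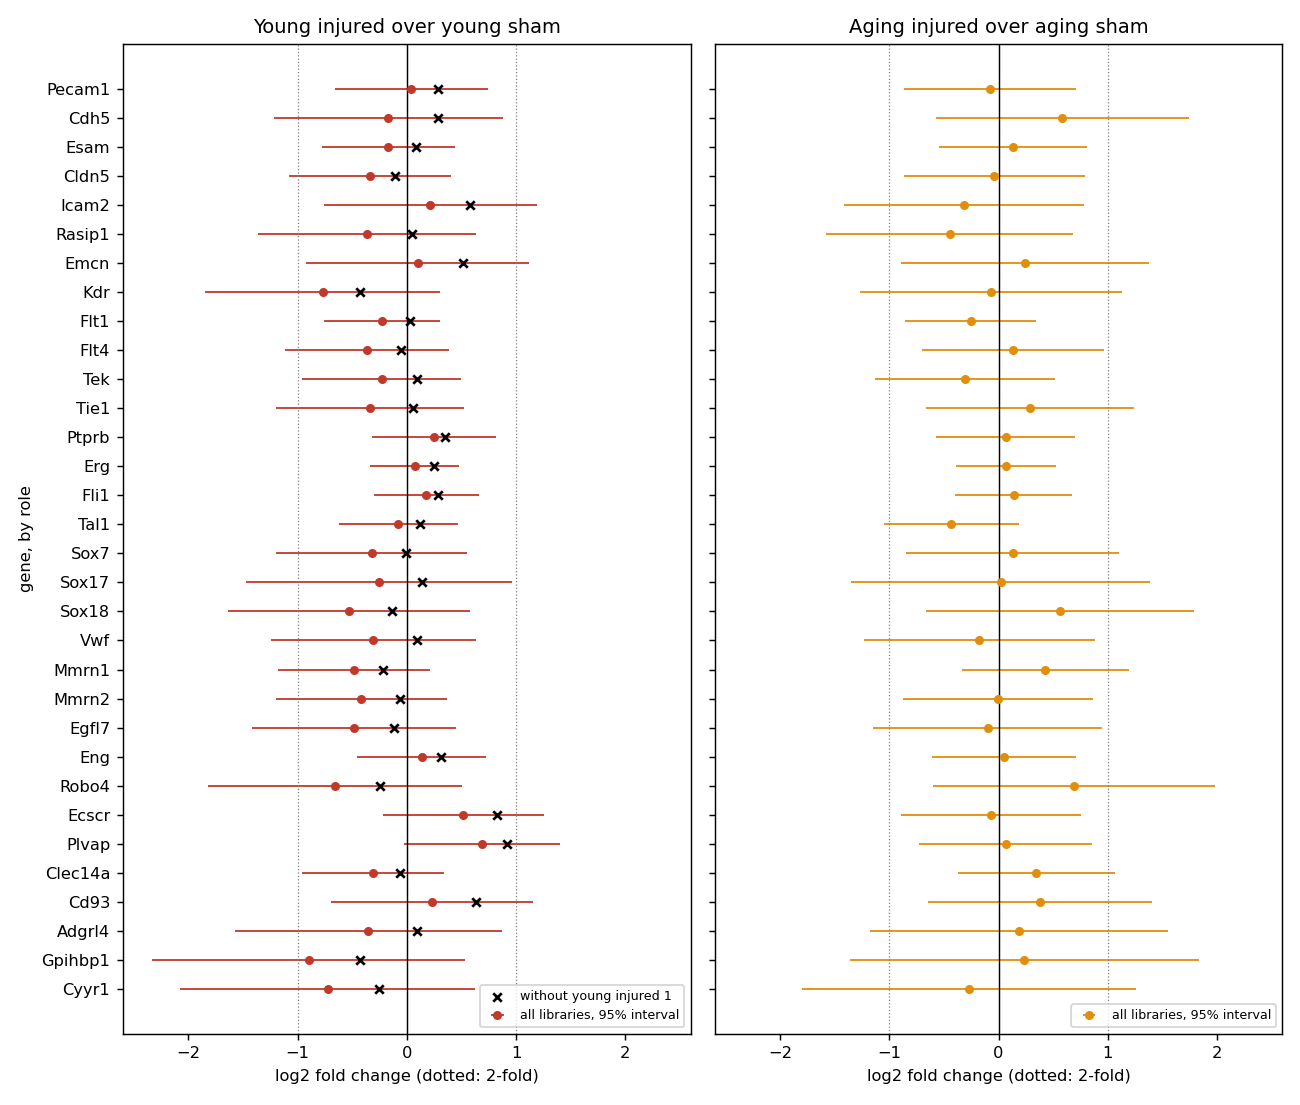
Log2 fold change of each gene (points) with its 95% interval (bars), for young injured over young sham at left and aging injured over aging sham at right, dotted lines marking 2-fold. Crosses give the young value without young injured 1, where the median was 0.09 instead of -0.28, and every interval includes zero.

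Among the adhesion and junction molecules the defining genes Pecam1 and Cdh5 behaved alike only in part. Pecam1 had 112, 248 and 171 CPM in young injured 1, 2 and 3, against 162, 153 and 200 CPM in young sham 1, 2 and 3. The lowest and the highest of these 6 libraries were both injured ones, and the log2 fold change was 0.04 ± 0.32 (SE), with a 95% interval of -0.66 to 0.75 (adjusted p = 0.989). In aging valves Pecam1 had 247 and 159 CPM in injured libraries, against 132, 221 and 289 CPM in sham libraries, a log2 fold change of -0.08 ± 0.36 (adjusted p = 0.983). The 2 injured libraries lay within the range of the sham ones.

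Cdh5 had 26.6, 116 and 160 CPM in young injured 1, 2 and 3, against 77.1, 105 and 158 CPM in young sham libraries. Young injured 2 and 3 lay within or just above the sham range and young injured 1 far below it, and the log2 fold change was -0.17 ± 0.48 (adjusted p = 0.961), or 0.28 ± 0.27 without young injured 1. In aging injured 1 and 2 it had 113 and 122 CPM, against 72.7, 69.4 and 92.8 CPM in aging sham 1, 2 and 3. Both injured libraries were above all sham ones, but the log2 fold change of 0.59 ± 0.53 did not pass (adjusted p = 0.830). The other 5 junction genes are Esam and Cldn5, of tight junctions, Icam2, a ligand of leukocyte integrins, Rasip1, needed for vessel lumens, and Emcn, which encodes the sialoglycoprotein endomucin. Their log2 fold changes ran from -0.37 (Rasip1) to 0.22 (Icam2) after injury in young valves and from -0.45 (Rasip1) to 0.24 (Emcn) in aging valves. As a set the 7 genes had medians of -0.17 and -0.04.

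The receptors held the member with the largest spread among the growth factor receptors, Kdr, which encodes VEGFR2, the main signalling receptor for VEGF-A. The gene lies on the minus strand of chromosome 5 (mm10, chr5:75932827-75978458). Its levels were 26.7, 34.6 and 113 CPM in young injured 1, 2 and 3, against 57.0, 94.1 and 146 CPM in young sham 1, 2 and 3. Young injured 1 and 2 were below all sham libraries, while young injured 3 was above 2 of them. The log2 fold change was -0.77 ± 0.49, with a 95% interval of -1.85 to 0.31 (adjusted p = 0.700). This value rested on young injured 3. Without it the log2 fold change of Kdr was -1.69 and passed (adjusted p = 0.0536, from 0.0536 to 1.00 over all alternatives tried), and it was -0.15 once the cardiomyocyte score, described further on, entered the fit. Young injured 3 was also the injured library with the most cardiac muscle RNA, at 42651 CPM summed over the 15 cardiomyocyte markers against 11221 and 10385 CPM in young injured 1 and 2. Kdr followed the cardiomyocyte score closely over the libraries, so its value with the score in the fit is no test of the part of muscle. That part was not tested. In aging valves Kdr had 62.4 and 63.1 CPM in injured libraries, against 87.6, 56.6 and 53.5 CPM in sham libraries, with no separation of the groups (-0.07 ± 0.55, adjusted p = 0.988).

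Tek, the angiopoietin receptor TIE2, had 21.1, 50.9 and 53.1 CPM in young injured libraries, against 39.0, 43.3 and 64.3 CPM in young sham libraries. Only young injured 1 lay outside the sham range, and the log2 fold change was -0.23 ± 0.33 (adjusted p = 0.902). Aging injured libraries had 52.3 and 42.3 CPM of Tek, against 42.1, 58.0 and 75.4 CPM in aging sham libraries (-0.31 ± 0.37, adjusted p = 0.894). The injured values were again inside the sham range. The other receptor genes were Flt1, a VEGF receptor that also acts as a decoy, Flt4, the VEGF-C receptor of lymphatic vessels, Tie1, the partner of TIE2, and Ptprb, the phosphatase VE-PTP that restrains TIE2. All 6 genes together ranged from -0.77 (Kdr) to 0.25 (Ptprb) in young and from -0.31 (Tek) to 0.29 (Tie1) in aging valves, with medians of -0.28 and -0.0033.

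The transcription factors were the steadiest members for ETS factors and variable for SOX factors. Erg and Fli1 had log2 fold changes of 0.07 and 0.18 in young and 0.07 and 0.14 in aging valves, and their 95% intervals excluded a 2-fold change either way in both comparisons. Sox18, like Sox7 and Sox17 a SOX factor of developing and adult endothelium, had 7.29, 22.3 and 29.6 CPM in young injured libraries, against 14.1, 21.2 and 50.2 CPM in young sham libraries. Young injured 1 was lowest and young sham 3 highest, with overlap between them (-0.53 ± 0.50, adjusted p = 0.823). In aging valves Sox18 had 19.4 and 28.3 CPM in injured libraries, against 14.5, 14.4 and 19.6 CPM in sham libraries (0.56 ± 0.56, adjusted p = 0.856). One injured library lay above the sham range and one just inside it.

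Tal1, a basic helix-loop-helix factor of blood and endothelial development, had the smallest unadjusted p of the 32 genes in aging valves. It had 6.68 and 8.56 CPM in aging injured 1 and 2, against 9.28, 8.76 and 12.8 CPM in aging sham libraries. Both injured values were below all sham values, by a small margin, and the log2 fold change of -0.43 ± 0.28 did not pass (unadjusted p = 0.152, adjusted p = 0.721). In young valves Tal1 had 6.94, 12.6 and 9.90 CPM in injured libraries, against 9.86, 11.2 and 10.1 CPM in sham libraries (-0.08 ± 0.25, adjusted p = 0.967), with overlapping groups.

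Of the secreted and granule proteins, Vwf encodes von Willebrand factor, stored in endothelial granules and in platelets. It had 30.3, 101 and 124 CPM in young injured libraries, against 72.3, 102 and 140 CPM in young sham libraries. Only young injured 1 lay outside the sham range (-0.31 ± 0.43, adjusted p = 0.900), and without it the log2 fold change was 0.10 ± 0.30. Aging injured libraries had 118 and 106 CPM of Vwf, against 82.2, 139 and 157 CPM in aging sham libraries (-0.18 ± 0.48, adjusted p = 0.965), inside the sham range.

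Mmrn1, or multimerin 1, another granule protein of endothelial cells and platelets, had 28.0, 45.1 and 68.3 CPM in young injured libraries, against 40.0, 76.8 and 81.3 CPM in young sham libraries. The groups overlapped, and the log2 fold change was -0.49 ± 0.32 (adjusted p = 0.710). In aging valves it had 81.7 and 68.4 CPM in injured libraries, against 46.7, 62.8 and 57.6 CPM in sham libraries, without overlap (0.43 ± 0.35, adjusted p = 0.799). The difference between the injury effects in aging and young valves was 0.92 ± 0.47 on the log2 scale, the smallest unadjusted p of the 32 genes for that difference at 0.0777, with an adjusted p of 0.696. Platelets are another source of both Vwf and Mmrn1. The 7 platelet markers summed to 30.7 to 52.1 CPM in young injured and 26.8 to 29.3 in young sham libraries. In aging injured libraries the sums were 39.4 and 43.9 CPM, and in aging sham libraries 32.5 to 36.4. Gp1bb and Pf4 made up most of each sum. Gp9, Gp1ba and Treml1 had at most 2.24, 0.65 and 0.80 CPM, and each was at 0 in some libraries. The part of platelets was not tested. Mmrn2, an endothelial matrix protein, and Egfl7, a secreted protein of the vessel wall, had log2 fold changes of -0.42 and -0.48 in young and -0.0026 and -0.10 in aging valves.

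The remaining surface proteins held both ends of the young injury comparison. At the upper end was Plvap (chromosome 8, minus strand, chr8:71497754-71511769 in mm10). It had 34.2, 58.4 and 63.6 CPM in young injured 1, 2 and 3, against 21.7, 27.2 and 48.1 CPM in young sham 1, 2 and 3. Young injured 2 and 3 were above all sham libraries, and young injured 1 lay between sham libraries. Its log2 fold change of 0.69 ± 0.32 had the smallest unadjusted p of the 32 genes, 0.0573, and did not pass (adjusted p = 0.561). It was 0.92 ± 0.32 without young injured 1 and 1.09 without young sham 3, still without a call. In aging valves the levels of Plvap were 37.5 and 61.2 CPM in injured libraries, against 38.4, 44.8 and 58.1 CPM in sham libraries (0.07 ± 0.36, adjusted p = 0.984). These 2 libraries lay at either end of the 5.

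Ecscr, a surface protein of migrating endothelial cells, had 10.2, 26.8 and 20.6 CPM in young injured libraries, against 12.4, 11.6 and 16.2 CPM in young sham libraries. Again 2 injured libraries were above and young injured 1 below all sham ones (0.52 ± 0.34, adjusted p = 0.709). Without young injured 1 the log2 fold change of Ecscr was 0.82 ± 0.28, with an unadjusted p of 0.0148 and an adjusted p of 0.374 in the edgeR test. These p-values are no independent support, since young injured 1 was set apart by the values of the same genes. Aging injured libraries had 20.5 and 10.5 CPM of Ecscr, on both sides of the 13.6, 17.7 and 17.3 CPM in aging sham libraries (-0.07 ± 0.38, adjusted p = 0.985).

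At the lower end was Gpihbp1 (chromosome 15, plus strand, chr15:75596628-75599481 in mm10). It had 1.73, 4.89 and 15.3 CPM in young injured 1, 2 and 3, against 9.43, 11.4 and 20.0 CPM in young sham 1, 2 and 3. As for Kdr, young injured 1 and 2 were below all sham libraries and young injured 3 was among them (-0.90 ± 0.65, adjusted p = 0.745). Robo4, a roundabout receptor that stabilises vessels, showed the same order, with 6.08, 11.4 and 37.1 CPM in young injured libraries, against 18.4, 25.9 and 41.6 CPM in young sham libraries (-0.66 ± 0.53, adjusted p = 0.777). Cyyr1 had 3.19, 10.8 and 28.0 CPM in young injured libraries, against 14.4, 20.9 and 34.0 CPM in young sham libraries (-0.72 ± 0.61, adjusted p = 0.791). In all 3 genes young injured 1 and 2 were below every sham library, and young injured 3 was above 2 of the 3. Without young injured 3 the log2 fold changes were -2.04 for Gpihbp1 (adjusted p = 0.113), -1.71 for Robo4 (adjusted p = 0.0598) and -1.73 for Cyyr1 (adjusted p = 0.160), so that Robo4 joined Kdr as called. In that fit 447 of all genes were called, 310 of them lower in injured valves, against 81 with all libraries. Without young injured 1 the log2 fold changes were instead -0.43 for Gpihbp1, -0.24 for Robo4 and -0.25 for Cyyr1. The size of the fall thus depended on which injured library was left out. Over all alternatives tried the adjusted p of Robo4 ranged from 0.0598 to 1.00.

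In aging valves Robo4 had 23.2 and 20.6 CPM in injured libraries, against 16.2, 10.2 and 14.3 CPM in sham libraries. The groups did not overlap, and the log2 fold change of 0.69 ± 0.59 did not pass (adjusted p = 0.812). Clec14a, a C-type lectin of endothelial cells, had 24.6 and 29.3 CPM in aging injured libraries, against 19.6, 18.4 and 25.8 CPM in aging sham libraries (0.35 ± 0.33, adjusted p = 0.841). In young valves it had 12.6, 20.9 and 27.3 CPM in injured libraries, against 17.8, 23.2 and 34.5 CPM in sham libraries (-0.31 ± 0.29, adjusted p = 0.823). Its groups overlapped at both ages. Gpihbp1 had 9.20 and 3.60 CPM in aging injured libraries, against 7.60, 3.67 and 4.95 CPM in aging sham libraries, and Cyyr1 had 12.6 and 6.96 CPM in aging injured libraries, against 16.8, 10.2 and 8.21 CPM in aging sham libraries. Neither gene separated the groups, with log2 fold changes of 0.24 ± 0.73 and -0.27 ± 0.69. The other 3 surface proteins are Eng, Cd93, a C-type lectin related to Clec14a, and Adgrl4, an adhesion G protein-coupled receptor. They had log2 fold changes of 0.14, 0.23 and -0.35 in young and 0.05, 0.38 and 0.19 in aging valves.

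**Figure D4:**
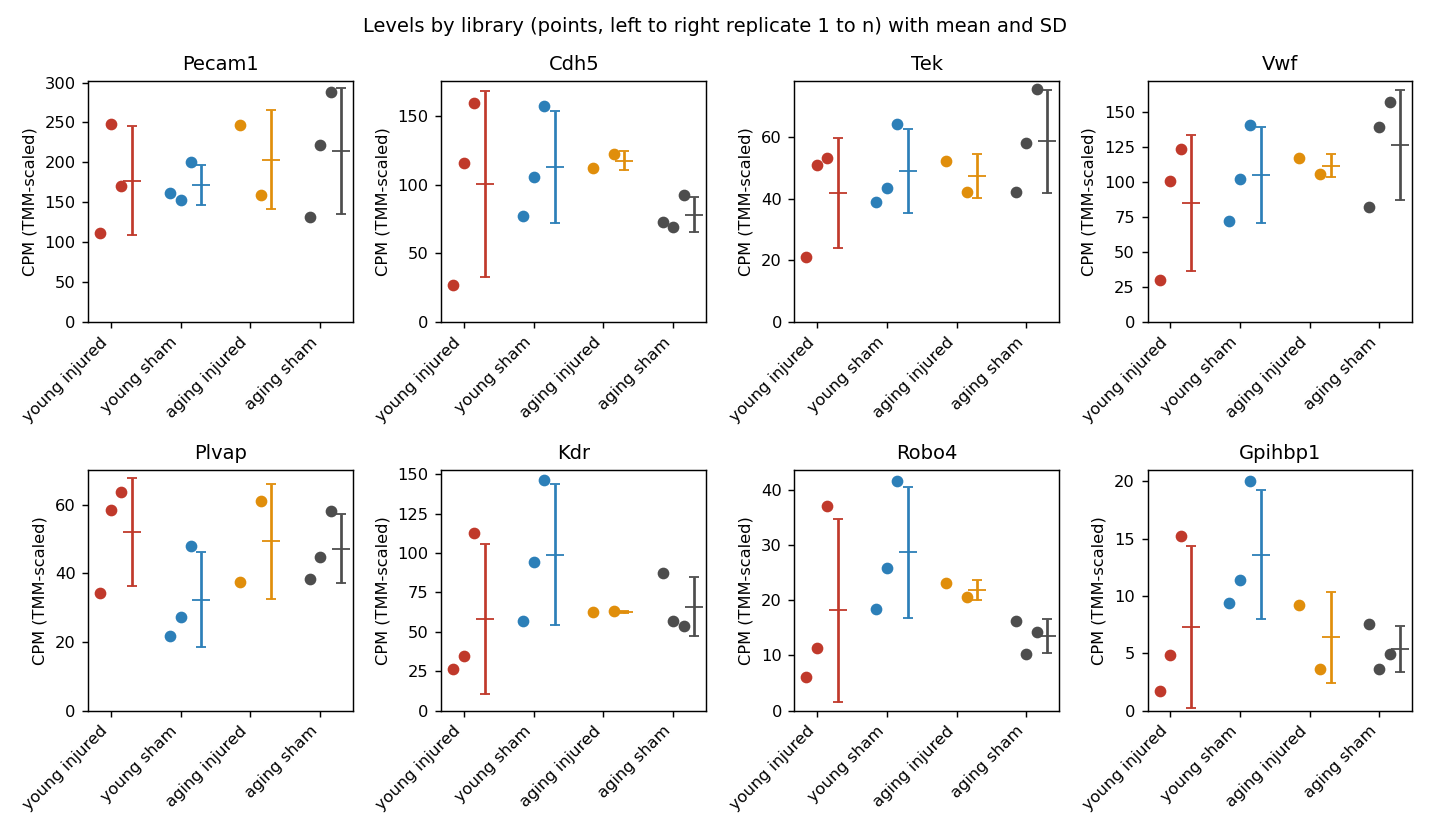
CPM of 8 genes by group, with 1 point per library (replicate 1 to n from left to right in each group) and the mean with its SD beside the points. In Kdr, Robo4 and Gpihbp1 the third young injured library lies far above the other 2, and in Cdh5 and Robo4 both aging injured libraries lie above the aging sham ones.

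Averaged over both ages, injury gave 0 called genes of 32, against 0.594% of all genes, and 0 at an unadjusted p under 0.05, against 11.5%, with DESeq2 at 0 on both counts. The log2 fold changes lay between -0.50 (Cyyr1) and 0.38 (Plvap), with a median of -0.04. That median was 0.11 without young injured 1, 0.09 without young sham 3 and 0.02 without aging sham 3. It was lower without young injured 2 (-0.15) or 3 (-0.22), without aging injured 1 (-0.11), without young sham 1 (-0.15) or 2 (-0.07) and without aging sham 1 (-0.13). For 27 of the 32 genes the 95% interval of this averaged change stayed within 2-fold both ways, and for all 32 it excluded a 2-fold or larger rise. The difference between the injury effects in aging and young valves was also uncalled for all 32 genes, as for 0% of all genes tested, and 0 were at an unadjusted p under 0.05 (7.86% of all genes), with 0 on both counts in DESeq2. It was above zero for 21 genes, with a median of 0.29 against -0.05 for all genes tested, and ranged from -0.62 for Plvap to 1.35 for Robo4. Without young injured 1 that median was -0.07, without young sham 3 it was 0.05, without aging injured 1 0.07 and without aging sham 1 0.15. It was 0.51 without young injured 3 and 0.45 without young sham 1.

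Age alone, in sham valves, left 0 of 32 genes called, against 0.0258% of all genes, and 0 at an unadjusted p under 0.05, against 9.19%. DESeq2 called 0, with 2 at an unadjusted p under 0.05. Of the members, 14 were higher and 18 lower in aging sham valves, and their median on the log2 scale was -0.06. Leaving out young sham 3 gave 0.21 and leaving out aging sham 1 gave 0.09, while leaving out young sham 1 gave -0.21 and leaving out aging sham 3 gave -0.19. The members with the lowest values were again Gpihbp1, at 7.60, 3.67 and 4.95 CPM in aging sham libraries, against 9.43, 11.4 and 20.0 CPM in young sham libraries, and Robo4, at 16.2, 10.2 and 14.3 CPM in aging sham libraries, against 18.4, 25.9 and 41.6 CPM in young sham libraries. These were the 2 genes of 32 whose aging and young sham libraries did not overlap, both lower with age, against 9.08% of all genes lower without overlap and 20.9% in either direction. Their log2 fold changes were -1.33 ± 0.66 and -1.08 ± 0.54, each with an adjusted p of 0.575.

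Cyyr1 and Sox18 were next among the genes lower in aging sham valves, at -0.97 ± 0.62 (adjusted p = 0.667) and -0.82 ± 0.51 (adjusted p = 0.658), while Plvap was higher at 0.54 ± 0.32 (adjusted p = 0.639). None of the 3 separated the groups. The defining gene Pecam1 stood at 0.32 ± 0.32 and Cdh5 at -0.53 ± 0.48, so that levels of these 2 junction genes differed in sign. Among injured valves, aging over young, 0 of 32 were called, against 0.062% of all genes, and 0 had an unadjusted p under 0.05, against 12.5%, with 0 on both counts in DESeq2. In this comparison 23 genes were above zero, with a median of 0.21, but 8 were, with a median of -0.12, without young injured 1. The median was 0.06 without aging injured 1, 0.36 without young injured 2 and 0.49 without young injured 3. Mmrn1 and Mmrn2 were higher without overlap in aging injured valves, against 9.89% of all genes higher without overlap and 24.4% in either direction. For Mmrn1 the margin was small, at 68.4 CPM in aging injured 2 against 68.3 CPM in young injured 3. The injury and age comparisons share libraries, so their values are not independent.

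Over the 11 libraries, 4 of the 32 genes followed the cardiomyocyte markers closely. How large a share of all genes tested did so as closely was not counted. The cardiomyocyte score, the mean of the standardised log2 CPM of the 15 markers, was -1.04, -0.78 and 1.19 in young injured 1, 2 and 3, against 0.27, 0.91 and 1.26 in young sham 1, 2 and 3. It was -0.25 and -0.22 in aging injured 1 and 2, against 0.48, -1.16 and -0.66 in aging sham 1, 2 and 3. High scores thus occurred in both surgery groups of young mice. Pearson's r with the score was 0.888 for Gpihbp1, 0.886 for Robo4, 0.884 for Kdr and 0.859 for Cyyr1, and Spearman's rho was 0.855, 0.900, 0.918 and 0.855 in the same order. The permutation p-values for r were 0.00015, 0.00013, 0.00026 and 0.00034, and adjusted over the 32 genes they were 0.00240, 0.00240, 0.00272 and 0.00272. Without the 2 libraries farthest from the median score, young sham 3 and young injured 3, r was 0.798, 0.782, 0.787 and 0.741. With group means removed it was 0.837, 0.904, 0.937 and 0.828, so the relation was also present within groups.

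The other 28 genes did not pass in this family of 32 relations. The next were Sox18 and Cdh5, at r of 0.621 and 0.596, both with an adjusted permutation p of 0.216, and r was below zero for Eng (-0.284), Pecam1 (-0.240), Erg (-0.198) and 6 further genes. Among the members 8 had r over 0.5, against 13.4% of all genes tested, and the median r was 0.35, against -0.06 over all genes. With the score added to the fit, the age effect in sham valves was -0.10 for Gpihbp1 and 0.10 for Robo4, against -1.33 and -1.08 without it. Both genes had the highest r with the score, so a value nearer zero is no test of the part of muscle. Of the 15 cardiomyocyte markers 0 were above zero in aging over young sham valves, with a median of -1.23. None of these markers was called, and aging sham 1 had a higher score (0.48) than young sham 1 (0.27). Age and the amount of muscle RNA thus went together in part in sham valves. The part of muscle in the age effects was not tested. The young injury effect of Plvap was 0.92 with the score and 0.69 without. With the score in the fit 29 of 32 genes were higher in aging sham valves, their median being 0.24 on the log2 scale, and still 0 were called in any of the 6 comparisons.

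**Figure D5:**
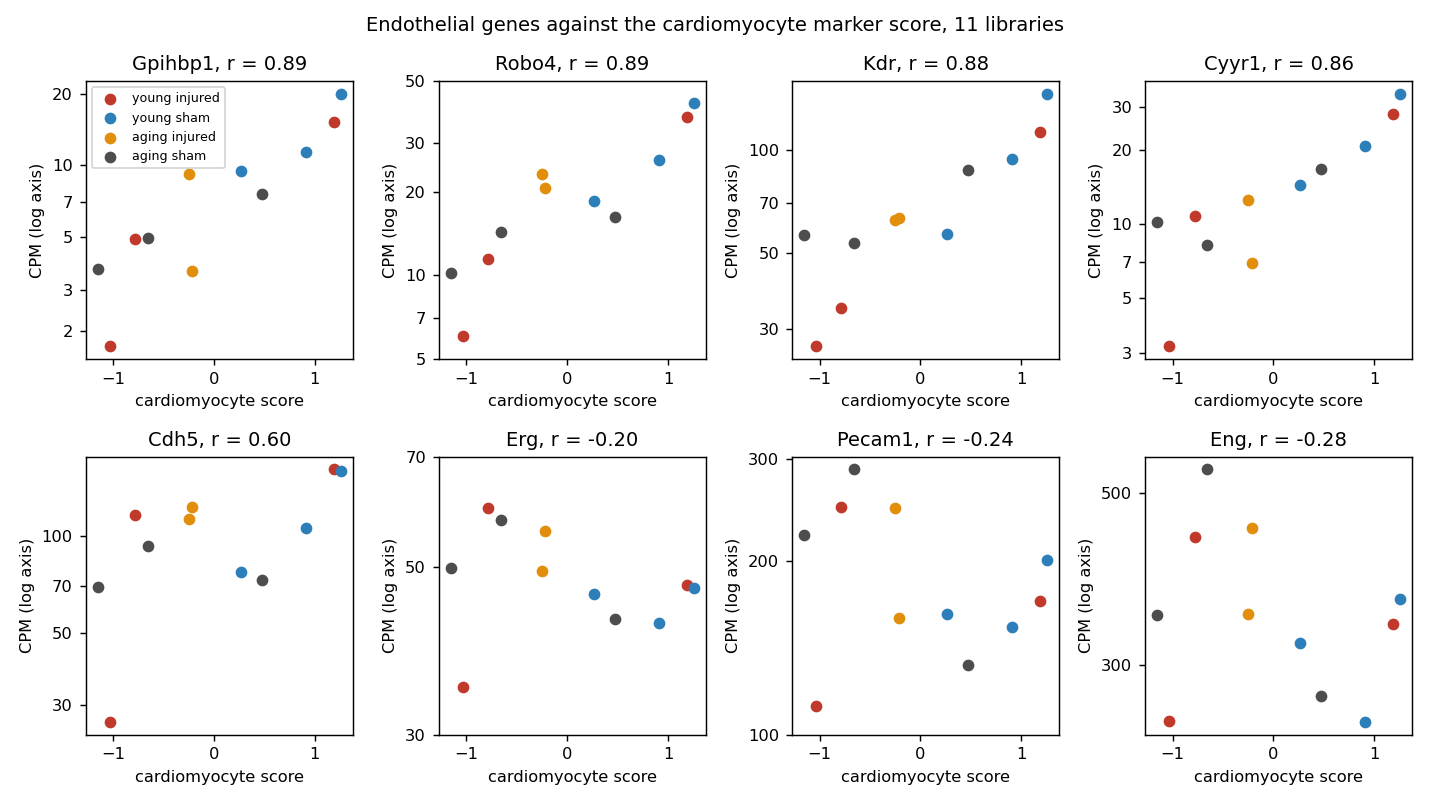
CPM of 8 genes on a log axis against the cardiomyocyte score, with 1 point per library coloured by group and Pearson's r above each panel. Gpihbp1, Robo4, Kdr and Cyyr1 are higher where the score is higher, while Erg, Pecam1 and Eng are not.

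Promoters are shown for Kdr, Robo4 and Cyyr1, which followed the score, and for Eng as the most abundant member that did not. The sequences are those of RefSeq on GRCm38.p6, from 250 bases before to 50 bases after the annotated start, in the direction of transcription. Of the 32 genes 17 had an entry, and Gpihbp1 was not among them. Capitals mark an E-box, CAGNTG, the motif bound by basic helix-loop-helix factors such as TAL1. Kdr is on the minus strand at chr5:75978406-75978705, Robo4 on the plus strand at chr9:37401722-37402021, Cyyr1 on the minus strand at chr16:85550324-85550623 and Eng on the plus strand at chr2:32646345-32646644. The RefSeq starts of Robo4 and Cyyr1 lie inside the gene intervals of the count table, which names another outermost start.
Kdr: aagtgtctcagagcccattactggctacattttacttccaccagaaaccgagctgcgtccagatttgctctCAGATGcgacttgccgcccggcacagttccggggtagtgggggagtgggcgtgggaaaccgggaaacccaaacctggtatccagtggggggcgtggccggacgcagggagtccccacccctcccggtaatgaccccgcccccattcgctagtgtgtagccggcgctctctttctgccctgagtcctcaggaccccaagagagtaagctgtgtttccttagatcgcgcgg
Robo4: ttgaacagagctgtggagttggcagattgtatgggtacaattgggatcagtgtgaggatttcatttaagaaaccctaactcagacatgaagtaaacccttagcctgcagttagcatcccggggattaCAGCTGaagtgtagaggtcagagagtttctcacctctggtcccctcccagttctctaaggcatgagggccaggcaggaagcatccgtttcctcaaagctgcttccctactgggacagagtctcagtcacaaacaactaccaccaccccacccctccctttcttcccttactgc
Cyyr1: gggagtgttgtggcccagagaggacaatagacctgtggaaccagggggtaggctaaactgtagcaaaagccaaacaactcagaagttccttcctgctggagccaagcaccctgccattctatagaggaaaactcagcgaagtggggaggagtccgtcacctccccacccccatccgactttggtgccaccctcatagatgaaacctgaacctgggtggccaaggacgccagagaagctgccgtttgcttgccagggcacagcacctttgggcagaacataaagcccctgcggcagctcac
Eng: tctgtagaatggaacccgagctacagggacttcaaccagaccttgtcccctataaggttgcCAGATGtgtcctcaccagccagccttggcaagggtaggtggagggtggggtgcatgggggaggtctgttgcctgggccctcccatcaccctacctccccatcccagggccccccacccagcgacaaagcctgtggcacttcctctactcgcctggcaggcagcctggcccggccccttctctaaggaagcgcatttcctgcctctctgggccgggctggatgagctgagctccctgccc

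The E-box began at base -179 from the start in Kdr, -123 in Robo4 and -189 in Eng, and the window of Cyyr1 held none. Matches were searched on both strands. An E-box was found in 10 of the 17 promoters (58.8%), against 51.1% of 27025 promoters of the same length. The ETS motif ACNGGAAG was found in 3 of 17 (17.6%), those of Emcn, Flt1 and Egfl7, against 7.99% of all promoters. The SOX motif AACAAT was in 3 (17.6%) against 10.9%, and the GATA motif AGATAA in 2 (11.8%) against 11.4%. None of the 4 printed promoters held an ETS, SOX or GATA match of these letters. The 4 printed windows differed in composition, with 19 CpG dinucleotides and 60.7% G and C bases in Kdr, 2 and 50.3% in Robo4, 6 and 56.7% in Cyyr1 and 6 and 63.3% in Eng.

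Marker lists of endothelial subtypes were read beside the pan-endothelial genes, and the gene named with each list is the one with its highest mean CPM, a level not scaled to length. Of the 9 capillary markers (Cd36, a fatty acid transporter), 0 were called and 1 was above zero in young injured over young sham valves, with a median of -0.76, lower than the -0.28 of the pan-endothelial genes. Their summed level was 353, 561 and 1103 CPM in young injured 1, 2 and 3, against 683, 789 and 1238 CPM in young sham 1, 2 and 3. In aging valves it was 787 and 686 CPM in aging injured 1 and 2, against 669, 581 and 576 CPM in aging sham 1, 2 and 3. Cd36 and Aqp1 made up most of each sum. Cd36 had 82.9, 147 and 610 CPM in young injured libraries, against 306, 411 and 708 CPM in young sham libraries. Aqp1 had 224, 300 and 249 CPM, against 242, 188 and 210 CPM. The spread of the sums in young valves thus rested largely on Cd36. In aging valves 8 of 9 were above zero with a median of 0.39, and in aging over young sham valves 1 of 9 was, with a median of -0.85. Of the 7 arterial markers (Efnb2) 0 were called and 0 were above zero in young valves (median -0.65), and 4 were in aging valves (median 0.36). The 3 venous markers (Ephb4) had medians of -0.21 and 0.06. The 5 lymphatic markers (Lyve1) had medians of -0.56 and -0.26, with 0 called.

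The 6 valve endocardial markers (Cgnl1) had a median of 0.28 after injury in young valves and -0.31 in aging valves, with 0 called. In young valves 5 were above zero, and in aging valves 1 was. Npr3 went the other way in young valves, with 10.1, 13.8 and 11.8 CPM in injured libraries, against 34.9, 28.0 and 18.8 CPM in sham libraries. These groups did not overlap, as for 14.6% of all genes tested. All 6 were detected. Of the 4 shear-responsive genes (Thbd, encoding thrombomodulin) 0 were called, with medians of 0.22 and -0.09. Of the 5 genes of inflamed endothelium 4 were above zero at both ages and 0 were called, with medians of 1.07 and 0.15. The gene with the highest CPM, Vcam1, an adhesion molecule for leukocytes, had 415, 437 and 280 CPM in young injured libraries, against 217, 164 and 159 CPM in young sham libraries. All injured libraries were above all sham ones, and the log2 fold change of 1.07 ± 0.24 had an adjusted p of 0.119. Vcam1 is also expressed by valve interstitial cells, so its level is not that of endothelium alone. The 5 sprouting genes (Angpt2) had medians of 0.35 and 0.09, and the 10 VEGF and angiopoietin ligands and co-receptors (Nrp1) had -0.40 and -0.12, all without a call.

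Of the lists for other cell types, 1 of 11 mesenchymal transition genes was called in young valves. S100a4, a calcium-binding protein of fibroblasts and macrophages, rose by 1.40 ± 0.30 on the log2 scale (adjusted p = 0.0978), a call that held under 6 of 18 alternative settings and was lost, among others, without any 1 of the young sham libraries (adjusted p = 0.119 to 0.328). The list median was 0.23 (Acta2). Of the 7 valve interstitial and fibroblast genes (Dcn) 2 rose. Col3a1, a fibrillar collagen, rose by 1.48 ± 0.17 (adjusted p = 0.00656), and Vcan, the proteoglycan versican, by 1.01 ± 0.19 (adjusted p = 0.0644). The call of Col3a1 held under 17 of 18 alternatives, all but the fit of the young libraries alone (adjusted p = 0.118). That of Vcan held under 6 of 18, and its adjusted p reached 0.259 without young sham 2. With DESeq2, median ratio factors or no mitochondrial genes its adjusted p was 0.000139, 0.0695 and 0.0655. There the call was lost because the log2 fold change, 0.995 to 0.997, lay just under the 2-fold threshold. In aging valves 0 genes of these lists were called, and averaged over age the macrophage gene Cd68, of the 8 leukocyte markers (Lyz2), rose by 1.11 ± 0.22 (adjusted p = 0.0657). Its call held under 10 of 17 alternatives, with an adjusted p of up to 0.172 without young sham 2. Medians for injury in young valves were 0.33 for leukocyte, -0.04 for mural (Cspg4), 0.54 for platelet (Gp1bb), 0.91 for mesothelial (Upk3b) and -0.73 for cardiomyocyte markers (Myh6). In aging valves they were 0.18, 0.11, 0.26, -1.17 and 0.16 in the same order. The platelet medians include Gp9, Gp1ba and Treml1, whose levels were very low. The part of these cell types in the endothelial values was not tested.

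Some of the genes overlap others in the mm10 coordinates of the count table, and whether counting used strand is not given in the sources used here. Egfl7 overlaps Agpat2 on the opposite strand and Mir126a and Gm20532 on its own, with 14846 counts for Egfl7 over all libraries and 7920, 98 and 4113 for these neighbours. Plvap (15838 counts) overlaps Gtpbp3 (6021) on the opposite strand, Eng (125720) overlaps Fpgs (6660) on the opposite strand, Rasip1 (8536) overlaps Izumo1 (1261) on the same strand, and Cyyr1 (5194) overlaps the pseudogene Gm2541 (338) on the same strand. Values of these 5 genes are uncertain to that extent.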

How the data were processed

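The authors deposited raw counts per gene, with no normalization, and RPKM values for a smaller set of genes. The genome build was mm10 and TopHat2 2.1.0 is among the tools, per the submitters' processing notes. How reads were counted, on which strand and with which annotation is not given in the sources used here. Among the library columns of each table, 1 matched no sample label and was not used. Counts of the 11 libraries were tested with edgeR 4.0.16 in R 4.3.3, after filterByExpr with a minimum count of 10 and TMM scaling, in a single quasi-likelihood fit with 4 group means. CPM values are TMM-scaled. RPKM was used only to set levels of genes side by side. Standard errors (SE) come from the log2 fold change and F. Correlations used 100000 permutations.

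The 32 members and the 16 other marker lists (112 genes) were chosen with earlier results of these data known. Values per library are given for defining members and for the 5 with the smallest unadjusted p in each injury comparison and for age in sham valves, and from other lists called genes and the gene with the highest mean CPM are named. Npr3 was added to these after seeing the data. The 10 pairs of same-group libraries differed by a chi-square per degree of freedom of 20.9 to 228, so no pair agreed within counting noise. Alternatives were DESeq2 1.42.0, median ratio factors, no mitochondrial genes, no count filter, a replicate block, the cardiomyocyte score, the compared libraries alone, and each library left out in turn. P-values of the group comparisons set a difference against the spread between mice. Those of the correlations come from permuting the score over all 11 libraries regardless of group.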

Additional observations from a re-analysis of the deposited data

How the results depend on the processing

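No member was called in any of the 6 comparisons under DESeq2, median ratio factors, no mitochondrial genes, no count filter or the cardiomyocyte score as covariate. Nor was any called with the compared libraries alone. That setting was not run for injury averaged over age or for the difference between ages. Leaving out 1 library gave 0 called members everywhere except for injury in young valves, where the range was 0 to 2, and the 2, Kdr and Robo4, came without young injured replicate 3. Replicate numbers showed no clear pairing of the mice, with correlations of same-numbered deviations of 0.08, -0.01 and 0.25 in young and -0.03 and -0.06 in aging valves. With 2 or 3 mice a group these values cannot exclude a pairing. With the replicate block 0 members were called, and the members' median was -0.31 for injury in young and 0.27 in aging valves. It was 0.53 for the difference between ages and 0.46 for age in injured valves, against 0.29 and 0.21 in the main fit. At an unadjusted p under 0.05 the block fit held 8 members in each of these comparisons, against 0 in the main fit. In the other comparisons it held 1 to 3. The share over all genes was not counted for the block fit. Over the single-library omissions the median ran from -0.55 to 0.09 in young and from -0.06 to 0.22 in aging valves, and 10 of 32 members changed sign in young valves without young injured replicate 1. The cause was not tested.

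Over all genes the counts moved more. In young valves 81 genes were called, against 268 with DESeq2, 11 with the young libraries alone and 16 to 447 over the omissions, and in aging valves 0, against 329 with DESeq2, 1 without a count filter and 0 to 261 over the omissions. For injury averaged over age the 115 became 402 with DESeq2, 60 with the replicate block and 38 to 284 over the omissions, and for the difference between ages the 0 became 174 with DESeq2. For age in sham valves the 5 became 200 with DESeq2, 14 without a filter, 13 with the sham libraries alone, 2 with the score and 1 to 10 over the omissions. For age in injured valves the 12 became 599 with DESeq2, 38 without a filter, 4 with the block, 88 with the score, 0 with the injured libraries alone and 3 to 429 over the omissions.

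With 2 or 3 mice a group the intervals were wide, and in young valves they excluded a 2-fold fall for 15 of the 32 members. The counts of alternatives given for S100a4, Col3a1, Vcan and Cd68 were added after seeing the data.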
